A study of Rattus norvegicus with 20 samples.

Results

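The genes described here are a set of fibrillar collagens, a fibril-associated collagen and a basement membrane collagen, measured in cultured rat progenitor cells and in their treated derivatives. The set was given as 7 symbols, Col1a1, Col1a2, Col3a1, Col4a1, Col5a1, Col5a2 and Col12a1, and every probe set annotated to 1 of these symbols alone was taken. That gave 10 probe sets for 6 of the 7 genes, out of 8740 probe sets tested and 4736 genes named by a single symbol. Col1a1 had 4 probe sets, Col3a1 had 2, and Col1a2, Col5a1, Col5a2 and Col12a1 had 1 each. No probe set carried the symbol Col4a1 in the annotation used, so Col4a1 was not analysed here.

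RNA was measured on 20 Affymetrix rat arrays, and the values are linear intensities. The high-density progenitors (HD) had 6 arrays, the low-density CCg progenitors (LD) had 4, the LD cells given FBS to make astrocytes (FBS) had 6, and the LD cells given RA/Fsk to make neurons (RA/Fsk) had 4. What CCg stands for is not in the labels. FBS is the usual short form of fetal bovine serum, RA that of retinoic acid and Fsk that of forskolin, and the labels give no dose, time, age, strain or tissue. CCg is absent from the HD labels, so culture density and CCg cannot be told apart in a difference between HD and LD. Arrays of a group with the same number in their titles were averaged and are called a culture, which left 4 cultures in each treated group and 3 in each of HD and LD. Nothing in the labels says that these numbers mark cultures grown apart, so p-values measure only the spread between these samples, which may be technical.

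Collagens are triple helices of 3 chains that are secreted into the extracellular matrix. Col1a1 and Col1a2 encode the chains of type I collagen and Col3a1 that of type III, the main fibre-forming collagens of connective tissue. Col5a1 and Col5a2 encode chains of type V collagen, a minor fibrillar collagen that is built into type I fibrils and helps to start their assembly, while type XII collagen, from Col12a1, sits on the surface of fibrils. Type IV collagen forms the network of basement membranes, which in the brain surround blood vessels and lie under the meninges. Fibrillar collagens are scarce in normal brain tissue outside vessels and meninges.

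Windows around the annotated starts of Col5a1 and Col5a2 are shown because both type V chains passed a test between RA/Fsk and LD. The Col5a2 call was not stable, and its level was not shown to be above background. The window of Col1a2 is shown beside them as that of a fibrillar chain that passed in no comparison. RefSeq windows from 250 bases before to 50 bases after the annotated start were found for these members on assembly GRCr8, and none was found in the table for Col1a1, Col3a1 or Col12a1. The Col5a1 window lies at chr3:31606630-31606929 on the plus strand, that of Col5a2 at chr9:55090102-55090401 on the minus strand, and that of Col1a2 at chr4:33518307-33518606 on the plus strand. Each is written 5′ to 3′ with matches to the searched motifs in capitals.
Col5a1: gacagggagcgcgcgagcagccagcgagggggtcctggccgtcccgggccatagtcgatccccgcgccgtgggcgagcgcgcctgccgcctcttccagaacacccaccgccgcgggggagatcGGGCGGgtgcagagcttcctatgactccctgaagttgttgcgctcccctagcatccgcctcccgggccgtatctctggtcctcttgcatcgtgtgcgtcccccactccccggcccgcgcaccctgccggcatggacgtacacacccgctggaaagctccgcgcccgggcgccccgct
Col5a2: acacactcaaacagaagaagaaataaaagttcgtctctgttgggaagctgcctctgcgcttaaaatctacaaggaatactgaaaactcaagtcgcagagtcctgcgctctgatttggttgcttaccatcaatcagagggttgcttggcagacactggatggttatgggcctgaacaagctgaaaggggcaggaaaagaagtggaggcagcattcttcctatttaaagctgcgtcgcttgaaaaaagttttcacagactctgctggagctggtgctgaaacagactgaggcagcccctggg
Col1a2: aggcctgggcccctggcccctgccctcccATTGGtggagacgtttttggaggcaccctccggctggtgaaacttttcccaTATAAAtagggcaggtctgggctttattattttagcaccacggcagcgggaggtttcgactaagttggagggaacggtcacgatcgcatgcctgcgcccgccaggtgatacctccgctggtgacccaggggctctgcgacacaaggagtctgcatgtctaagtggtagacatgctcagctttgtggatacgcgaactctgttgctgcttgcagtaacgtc
Motifs were searched on both strands and did not overlap one another in these windows. The motif CCAAT was held by 37.5% of the 33469 windows in the table. The motif GGGCGG, a GC box, was held by 33.1% of the windows, and the motif TATAAA by 14.2% of them. The Col5a1 window held 1 GC box, at position -127 from the start. The Col5a1 start in the table lies 405 bases inside the first base of the gene. This whole window therefore lies within the annotated gene and not upstream of it. The starts of Col5a2 and Col1a2 lie at the first base of their genes. The Col1a2 window held CCAAT on the minus strand, read as ATTGG here, at position -221 and the TATA motif at position -170. In the Col5a2 window none of these letters was present. The share of G and C was 72% for Col5a1, 57% for Col1a2 and 47.7% for Col5a2, against a median of 51.7% over all windows. The Col5a1 window held 36 CpG pairs and the Col5a2 window 6. A match is a description of letters and does not show that a factor binds.

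Array medians ran from 41 to 57.5 and the median of all values was 49.9. All 4 groups were fitted together with limma on log2(intensity + 4.99), which understates the change of dim probe sets. In a difference written as FBS minus LD the LD mean on the log2 scale is taken from the FBS mean, and its standard error (SE) is given. It passed where the p adjusted by Benjamini-Hochberg, counting all 8740 probe sets, was under 0.05. The words rose and fell are used only for what passed. Arrays 3 and 3r, both of FBS culture 3, correlated at 0.951 over all probe sets tested, below the 0.956 to 0.979 between arrays of different FBS cultures, so the results that involve FBS were also computed with each of the pair alone. The GAPDH control ratio of 5′ to 3′ signal, a measure of RNA integrity, ran from -0.20 to 0.05 on the log2 scale in HD, from -0.47 to -0.21 in LD, from -0.16 to -0.01 in FBS and from -0.47 to -0.11 in RA/Fsk. Its part in the results was tested only by adding it to the fit as a covariate. The 15 antisense control probe sets of the arrays had culture means of 22.6 to 29.9 in HD, 29.7 to 37.3 in LD, 23.6 to 27.5 in FBS and 25.8 to 44.0 in RA/Fsk. A probe set at or below such a level is not shown to be above background, and the size of a difference from it depends on the pseudocount, so no fold is given there. In bulk cultures, fewer cells of a type and less RNA per cell cannot be told apart.

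Col5a1, the main chain of type V collagen, was the only member that rose over LD in both treated groups. Its intensity was 48.6, 38.4 and 71.1 in the HD cultures. The LD cultures stood at 51.0, 73.6 and 65.6. The FBS cultures stood at 349.2, 315.7, 358.6 and 428.7. All 4 FBS cultures lay far above every progenitor culture. In RA/Fsk the values were 150.8, 197.2, 135.4 and 135.1, so these cultures lay between the progenitors and FBS without overlapping either.

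With FBS, Col5a1 rose 5.40-fold over LD, a difference of 2.43 ± 0.21 (SE) log2 with a 95% interval from 1.98 to 2.89 (limma adjusted p = 3.54e-07). Against HD it rose 6.52-fold (limma adjusted p = 1.39e-07). With RA/Fsk it rose 2.33-fold over LD, by 1.22 ± 0.21 log2 with a 95% interval from 0.77 to 1.67 (limma adjusted p = 0.00171), and 2.81-fold over HD (limma adjusted p = 0.000295). The RA/Fsk level was itself lower than the FBS level, by -1.21 ± 0.20 log2 (limma adjusted p = 0.000306). With the culture number as a block in the RA/Fsk and LD cultures alone, the rise of Col5a1 with RA/Fsk was 1.10 log2 (limma adjusted p = 0.0452). The comparisons with LD share the same 3 LD cultures. The order of the group means was FBS at 361, RA/Fsk at 153, LD at 62.7 and HD at 51.2, and LD and HD did not pass the test against each other (-0.27 ± 0.23 log2 for HD minus LD, limma adjusted p = 0.648). With array 3r alone for FBS culture 3 the rise over LD was 2.36 log2, without array 3r it was 2.51 log2, and with the GAPDH ratio as a covariate it was 2.76 log2.

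Col12a1, the chain of the fibril-associated type XII collagen, was high in FBS alone. Its intensity was 27.4, 32.3 and 47.6 in HD. In LD it was 32.1, 14.1 and 23.8. In FBS it was 342.7, 277.2, 223.5 and 343.8, and in RA/Fsk 28.7, 23.9, 32.4 and 32.8. The lowest FBS culture was above every culture of the other 3 groups, which overlapped one another. Col12a1 rose with FBS by 3.44 ± 0.27 on the log2(intensity + 4.99) scale over LD, with a 95% interval from 2.86 to 4.03 (limma adjusted p = 1.13e-07), and by 2.90 ± 0.27 over HD (limma adjusted p = 9.01e-07). The RA/Fsk level was lower than the FBS level by -3.12 ± 0.25 log2 (limma adjusted p = 1.97e-07). The LD and RA/Fsk cultures lay within or below the range of the antisense controls, so these sizes are set against a level not shown to be above background, and with a pseudocount of 32 the rise over LD was 2.57 log2.

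Between RA/Fsk and LD, Col12a1 differed by 0.33 ± 0.27 log2 with a 95% interval from -0.25 to 0.91 (limma adjusted p = 0.571). Between RA/Fsk and HD it differed by -0.22 ± 0.27 log2, with an interval from -0.80 to 0.36 (limma adjusted p = 0.711). The order of its group means was FBS at 292, HD at 34.9, RA/Fsk at 29.3 and LD at 22.3. Of the neighbours in that order, the FBS and HD levels differed beyond their spread and the other pairs did not pass. From array 3r alone the rise with FBS over LD was 3.39 log2, without that array it was 3.50 log2, and with the GAPDH ratio as a covariate it was 3.23 log2.

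**Figure D1:**
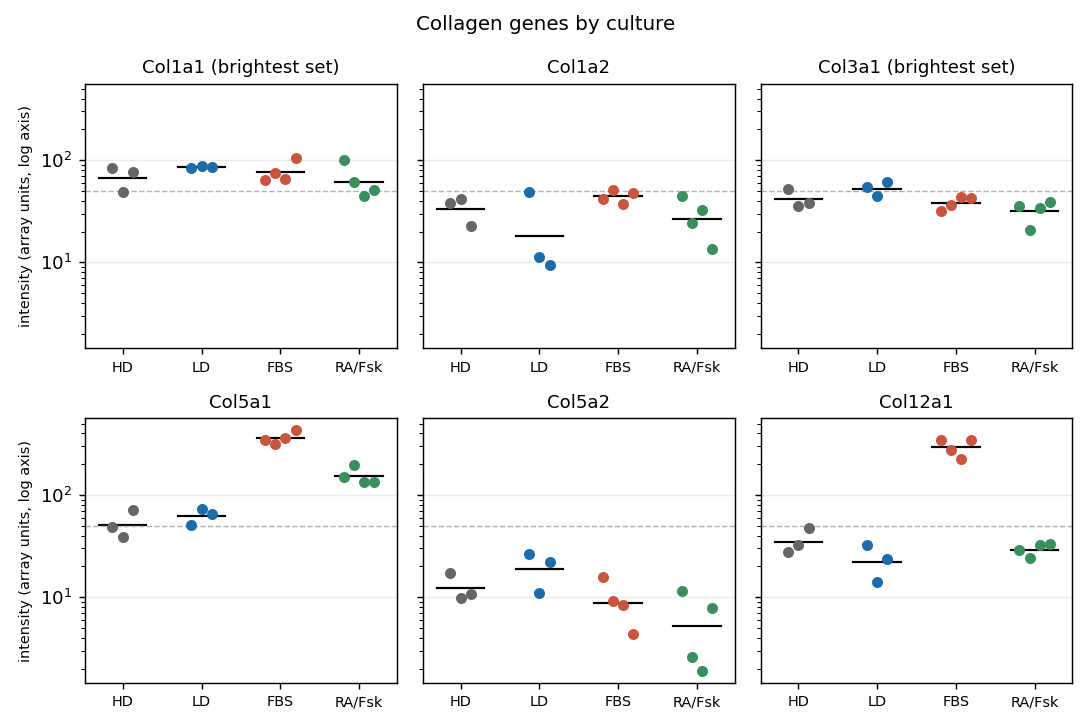
Intensity of each collagen gene by culture, on a log axis in array units, with 1 panel per gene and the probe set of highest mean for Col1a1 and Col3a1. Points are cultures, black bars are group means on the log2 scale and the dashed line is the median of all values, 49.9. The 4 FBS cultures of Col5a1 run from 315.7 to 428.7 and those of Col12a1 from 223.5 to 343.8, while Col5a2 lies below the line in every culture.

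Of the 10 member probe sets, 2 rose and 0 fell with FBS over LD, those of Col5a1 and Col12a1. Over all probe sets 25.5% passed in this comparison, 13.2% upward and 12.3% downward. The median difference of the members was 0.02 log2 against -0.09 over all probe sets. Col5a1 and Col12a1 both lay above the array's own median on 6 of 6 FBS arrays. The remaining 8 member probe sets did not pass with FBS, and 3 of the 10 passed between RA/Fsk and FBS, all lower in RA/Fsk, where 18.4% of all probe sets passed and 10.1% were lower. The 3 were Col5a1, Col12a1 and 1 dim probe set of Col1a1.

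Of the 10, 1 rose and 1 fell with RA/Fsk over LD, where 8.25% of all probe sets passed, 4.71% upward and 3.54% downward. The member that rose was Col5a1 and the member that fell was Col5a2, the other chain of type V collagen. The Col5a2 call was lost in 15 of 26 alternatives, and its cultures lay below the antisense controls. Against HD, 3 of 10 were higher in FBS, where 21.0% of all probe sets passed, 11.3% upward. In RA/Fsk 1 of 10 was higher than in HD, where 10.2% passed, 4.85% upward.

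**Figure D2:**
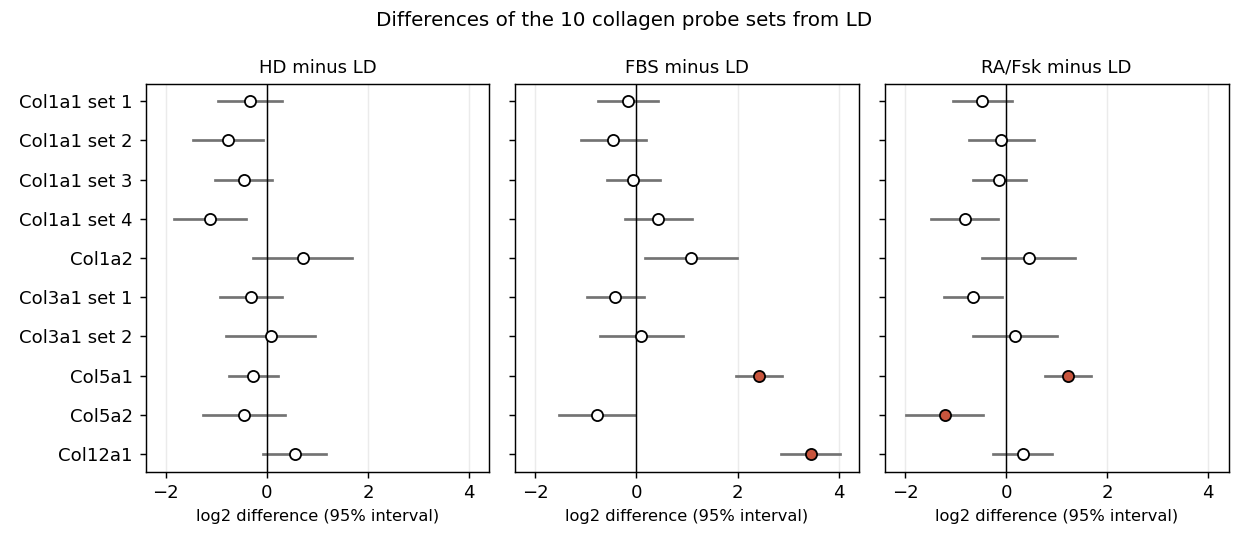
Log2 difference of each collagen probe set for HD, FBS and RA/Fsk minus LD, with 95% intervals as lines and filled points for those that passed. Col5a1 and Col12a1 stand farthest to the right for FBS minus LD, at 2.43 and 3.44, and Col5a1 is the only member to the right that passed for RA/Fsk minus LD, at 1.22.

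Col5a2, the partner chain of type V collagen, was dim throughout. Its intensity was 17.3, 9.7 and 10.7 in HD. In LD it was 26.3, 10.9 and 22.0. In FBS it was 15.8, 9.1, 8.4 and 4.4, and in RA/Fsk 11.4, 2.6, 1.9 and 7.9. It lay below the array median on all 20 arrays, and the RA/Fsk range overlapped the LD range. Every culture of Col5a2 lay below the antisense controls of its group, a level not shown to be above background. Col5a2 fell by 1.21 log2 with RA/Fsk over LD, with an SE of 0.36 and a 95% interval from -1.97 to -0.45 (limma adjusted p = 0.0467), just past the threshold. That call ended in a fit of the RA/Fsk and LD cultures alone with the culture number as a block, where the difference was -1.07 log2 (limma adjusted p = 0.106). It ended with FBS culture 3 taken from array 3r alone (limma adjusted p = 0.0685) or without that array (limma adjusted p = 0.0568), which change the shared spread only. It also ended with 1 culture left out at a time, without LD culture 1, LD culture 4, RA/Fsk culture 2 or RA/Fsk culture 3, where the adjusted p was 0.164, 0.135, 0.121 and 0.110, and without HD culture 1, 2 or 4 or FBS culture 2 or 3, where it was 0.0517 to 0.0639.

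With FBS over LD, Col5a2 differed by -0.78 ± 0.36 log2 with a 95% interval from -1.54 to -0.02, and did not pass (limma adjusted p = 0.134). With the GAPDH ratio as a covariate that difference was -1.55 log2 and passed (limma adjusted p = 0.00869). Its group means followed the order LD at 18.8, HD at 12.3, FBS at 8.86 and RA/Fsk at 5.26, and no neighbours in that order passed against each other. Repeat arrays of a culture differed in Col5a2 by 0.12 to 1.25 log2 over 6 pairs, with a median of 0.61. For Col5a1 the same pairs differed by a median of 0.17 log2.

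Type I collagen gave no probe set that passed with either treatment over LD. The Col1a1 probe sets are called set 1 to set 4 from the brightest to the dimmest, and sets 2 and 3 were made from the same sequence record. Col1a1 set 1 had intensities of 83.4, 48.4 and 76.2 in HD. In LD they were 84.3, 88.8 and 86.5. The FBS cultures gave 63.9, 75.8, 65.8 and 106.0, and in RA/Fsk 100.8, 60.7, 44.3 and 51.0. These ranges overlapped between FBS and LD and between RA/Fsk and LD. The difference of set 1 was -0.17 log2 for FBS minus LD (limma adjusted p = 0.720) and -0.47 log2 for RA/Fsk minus LD (limma adjusted p = 0.377). Its group means were 86.5 in LD, 76.3 in FBS, 67.6 in HD and 61.2 in RA/Fsk, with no neighbours that passed.

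Set 4 of Col1a1 was the member probe set with a pattern of its own, and it was dim, below the array median on all 20 arrays. Its HD, LD and RA/Fsk cultures lay below the antisense controls of their groups, a level not shown to be above background. Its values were 9.2, 6.8 and 4.1 in HD. In LD they were 26.6, 16.5 and 18.4. The FBS values were 30.6, 27.5, 35.1 and 23.5, and in RA/Fsk 13.4, 9.0, 3.5 and 14.1. The RA/Fsk cultures lay below every LD and FBS culture, and the HD cultures below every LD and FBS culture. The RA/Fsk level was lower than the FBS level by -1.25 ± 0.29 log2 (limma adjusted p = 0.00528), and the FBS level was higher than the HD level by 1.56 ± 0.31 log2 (limma adjusted p = 0.00124). For RA/Fsk minus LD the difference was -0.81 log2 and did not pass (limma adjusted p = 0.131). With the GAPDH ratio as a covariate the RA/Fsk minus FBS difference was -0.82 log2 and no longer passed (limma adjusted p = 0.118). The other 3 sets did not pass between RA/Fsk and FBS, at -0.30, 0.36 and -0.07 log2 for sets 1 to 3. Whether the sets differ from one another was not tested.

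Sets 2 and 3 of Col1a1 did not pass in any comparison. Set 2 ran from 19.4 to 49.0 in HD, from 49.8 to 71.9 in LD, and from 35.2 to 58.4 in FBS, and in RA/Fsk it was 83.8 in culture 1 and at most 53.8 in the others. Set 3 ran from 31.0 to 36.4 in HD, from 46.8 to 51.6 in LD, from 34.7 to 53.8 in FBS and from 34.1 to 54.8 in RA/Fsk. The treated cultures of both sets overlapped LD. Over the 14 cultures, which share arrays and scaling, the correlation of set 1 with sets 2, 3 and 4 was 0.116, 0.262 and 0.404, and that of sets 2 and 3 was 0.510. Repeat arrays differed most in set 2, by up to 1.60 log2, where the paired FBS arrays 3 and 3r gave 64.9 and 18.1.

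**Figure D3:**
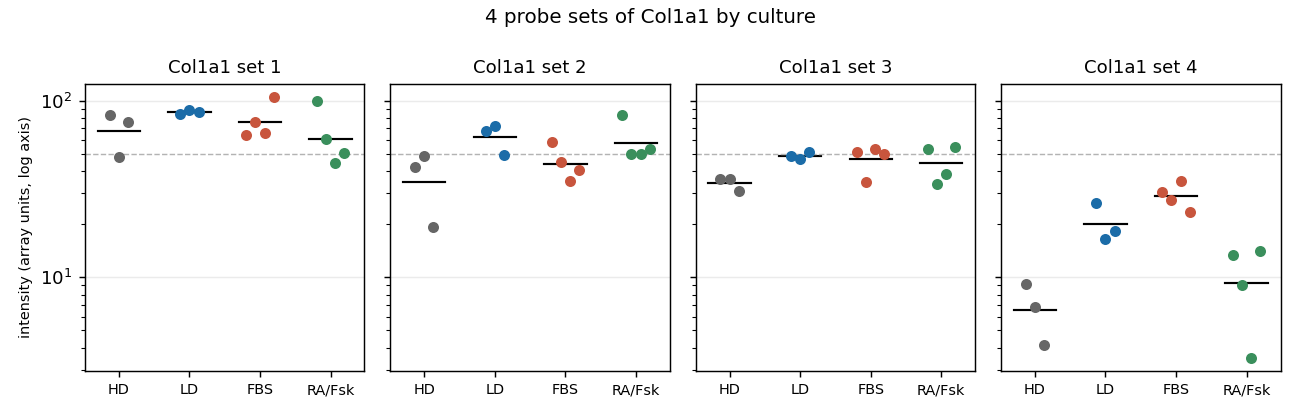
Intensity of the 4 Col1a1 probe sets by culture, on a log axis in array units, with points for cultures, black bars for group means on the log2 scale and a dashed line at the median of all values, 49.9. The HD cultures lie below the LD cultures in every panel, and in set 4 the FBS cultures run from 23.5 to 35.1 and the RA/Fsk cultures from 3.5 to 14.1.

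Between HD and LD, the comparison of culture conditions before treatment, 0 of the 10 member probe sets passed with limma, and 2 had an unadjusted p under 0.05. Over all probe sets 0.858% passed. In all 4 Col1a1 sets the HD cultures lay below the LD cultures with no overlap, and over all probe sets 11.9% lay lower in this way. The 4 sets measure 1 gene in the same cultures and are not independent. The differences of sets 1 to 4 were -0.33, -0.76, -0.46 and -1.13 log2, with adjusted p from 0.139 for set 4 to 0.667 for set 1. With each array taken as its own sample, set 4 differed by -1.21 log2 and passed (limma adjusted p = 0.0207), but repeat arrays of a culture are then counted as separate samples. The GAPDH ratio also lay higher in HD than in LD. With it as a covariate the differences of sets 1 to 4 were -0.60, -1.22, -0.72 and -1.61 log2. None of these passed (limma adjusted p from 0.0622 for set 4 to 0.392 for set 1).

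Col1a2, the second chain of type I collagen, lay below the array median on all 20 arrays. Its values were 38.2, 41.3 and 22.6 in HD. In LD they were 48.7, 11.3 and 9.5. The FBS cultures gave 42.0, 51.2, 36.9 and 48.1, and in RA/Fsk 44.6, 24.5, 32.7 and 13.5. LD culture 1 stood within the FBS range and the other 2 LD cultures below it. The difference for FBS minus LD was 1.08 ± 0.43 log2 with a 95% interval from 0.17 to 1.99 and did not pass (limma adjusted p = 0.0815), while without LD culture 1 it was 1.68 log2 and passed (limma adjusted p = 0.00412). For RA/Fsk minus LD it was 0.45 log2 (limma adjusted p = 0.633). The group means were 44.2 in FBS, 33.1 in HD, 26.8 in RA/Fsk and 18.3 in LD, and no pair of groups passed.

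Col3a1, the chain of type III collagen, did not pass in any comparison with either probe set. Set 1 had values of 52.5, 35.4 and 38.2 in HD. In LD they were 54.2, 44.6 and 60.8. In FBS they were 31.6, 36.5, 43.6 and 42.7, and in RA/Fsk 35.6, 20.8, 34.4 and 38.9. Every treated culture lay below every LD culture. The differences were -0.42 log2 for FBS minus LD (limma adjusted p = 0.300) and -0.66 log2 for RA/Fsk minus LD (limma adjusted p = 0.160). Over all probe sets 18.5% lay lower without overlap in FBS than in LD, and 8.39% in RA/Fsk. Set 2 ran from 6.1 to 21.7 over all 14 cultures, below the median of its array on all 20 arrays, and its correlation with set 1 over the 14 cultures was -0.158.

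The genes whose pattern over the 14 cultures was most like that of Col5a1 were Pam, an enzyme that amidates peptide hormones (r = 0.987), Timp1, an inhibitor of matrix metalloproteinases (r = 0.978), and Slc6a8, the creatine transporter (r = 0.958). Those most like Col12a1 were Igfbp2, which binds insulin-like growth factors (r = 0.981), Emb, a membrane glycoprotein (r = 0.980), and Fstl1, a secreted glycoprotein (r = 0.979). For the other members the closest gene had a lower correlation, 0.844 for Col1a1 with Kcnj11, 0.828 for Col1a2 with Slc2a3, 0.779 for Col3a1 with Sycn and 0.753 for Col5a2 with Cyp2b15. These are the highest of a large search over points that share arrays and scaling, and are given as a description.

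The counts of the lists below stand beside the shares over all probe sets. With FBS over LD 13.2% of all probe sets rose and 12.3% fell, and with RA/Fsk over LD 4.71% rose and 3.54% fell. Other collagens were taken from a list of 21 genes, of which 8 were measured. With FBS over LD, 2 of the 8 rose, 1 fell and 5 did not pass, with a median of 0.22 log2. Col2a1, the cartilage fibrillar collagen, and Col11a1, a fibrillar collagen closely related to Col5a1, rose, and Col10a1, a collagen of hypertrophic cartilage, fell. With RA/Fsk over LD 0 of the 8 passed with limma, and 1 had an unadjusted p under 0.05. The type IV chains in the list with a probe set were Col4a3, at 0.49 log2 for FBS minus LD (limma adjusted p = 0.344), and Col4a5, at -0.50 log2 (limma adjusted p = 0.423). Both lay below the antisense controls in LD and FBS, so their not passing does not show that basement membrane collagens were unchanged. Col4a2, like Col4a1, was not matched to a probe set. Col10a1 fell by 0.99 log2, with cultures from 69.0 to 119.5 in LD and from 20.6 to 70.9 in FBS that overlapped (limma adjusted p = 0.0355), and this call ended when culture 1 or 3 of either group was left out or when only these groups were fitted (limma adjusted p from 0.0755 to 0.144).

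Col2a1 and Col11a1 each had 2 probe sets, and all were examined after their values were seen. Set 1 of Col2a1 had values of 6.2, 21.0 and 9.4 in HD. In LD they were 8.0, 25.6 and 8.1. In FBS they were 186.7, 232.6, 193.3 and 156.3, and in RA/Fsk 4.5, 7.1, 3.7 and 6.2. The FBS cultures lay above all others, and the rise over LD was 3.50 ± 0.36 log2 (limma adjusted p = 1.81e-06). The LD values lay below the antisense controls of 29.7 to 37.3, so this size is set against a level not shown to be above background, and it ran from 2.30 to 3.91 log2 over the alternatives. Set 2 of Col2a1 ran from 1.6 to 4.4 in every culture, below the antisense controls of every group. It did not pass for FBS minus LD (0.19 log2, limma adjusted p = 0.445). At a level not shown to be above background it cannot decide on the rise, which rests on set 1 alone.

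Set 1 of Col11a1 had values of 32.4, 30.2 and 39.5 in LD and 82.3, 31.4 and 49.9 in HD. In FBS they were 143.2, 108.8, 86.0 and 75.1, and in RA/Fsk 40.3, 63.1, 30.2 and 62.6. The rise of set 1 with FBS over LD was 1.44 ± 0.33 log2 (limma adjusted p = 0.00325). Set 2 had values of 8.3, 9.1 and 7.2 in LD. In FBS they were 63.9, 70.4, 47.2 and 79.2, and in HD 32.6, 47.4 and 56.0. Both sets of Col11a1 rose with FBS over LD, set 2 by 2.39 ± 0.27 log2 (limma adjusted p = 4.73e-06). The LD values of set 2 lay below the antisense controls, a level not shown to be above background. Set 2 was also higher in HD than in LD, by 1.90 ± 0.29 log2 (limma adjusted p = 0.00330). Set 1 did not pass between HD and LD (0.53 ± 0.35 log2, limma adjusted p = 0.540) and its cultures overlapped, so the call there rests on set 2 alone. In RA/Fsk set 2 was 5.4, 5.4, 5.7 and 6.9, close to LD, and lower than in FBS by -2.67 ± 0.25 log2 (limma adjusted p = 1.07e-06).

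**Figure D4:**
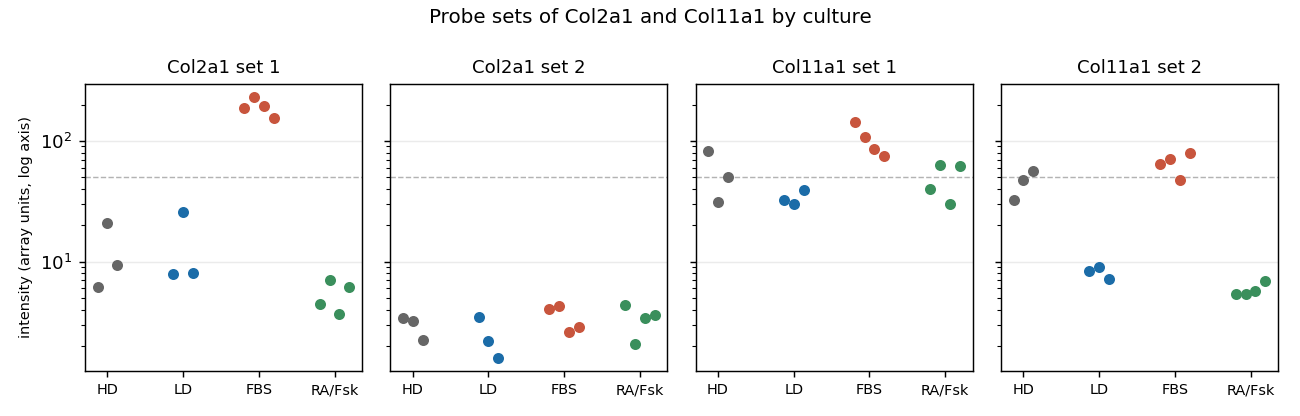
Intensity of the probe sets of Col2a1 and Col11a1 by culture, on a log axis in array units, with points for cultures and a dashed line at the median of all values, 49.9. Set 1 of Col2a1 runs from 156.3 to 232.6 in FBS and from 3.7 to 25.6 in the other groups, set 2 of Col2a1 stays between 1.6 and 4.4, and set 2 of Col11a1 is high in HD and FBS.

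Of 24 genes for collagen folding, processing and cross-linking, 17 were measured, and with FBS over LD 9 rose, 1 fell and 7 did not pass, with a median of 0.56 log2. Serpinh1, the collagen chaperone HSP47, rose by 2.06 ± 0.35 log2 (limma adjusted p = 0.000228), from 3.6 to 5.0 in LD, a level below the antisense controls, to 14.8 to 54.3 in FBS. Plod2, a lysyl hydroxylase, rose by 1.38 ± 0.24 log2 (limma adjusted p = 0.000358). Calr, a chaperone of the endoplasmic reticulum, rose by 1.06 ± 0.19 log2 (limma adjusted p = 0.00054). Ppib, a prolyl isomerase of procollagen folding, fell by 0.76 log2 (limma adjusted p = 0.000152). Lox, the lysyl oxidase that cross-links collagen, did not pass (0.05 log2, limma adjusted p = 0.957). With RA/Fsk over LD 1 of the 17 rose, Calr (0.88 ± 0.19 log2, limma adjusted p = 0.00847). The count was 0 with the culture number as a block in the RA/Fsk and LD cultures alone (Calr 0.78 log2, limma adjusted p = 0.0652), with only these groups fitted and without LD culture 3, and it was 3 without RA/Fsk culture 1 and 2 without RA/Fsk culture 3.

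Of 9 collagen receptors and matrix receptors, 5 were measured, and 3 rose with FBS over LD and 0 fell. Cd44, a receptor for hyaluronan and collagen, rose by 4.57 ± 0.21 log2 (limma adjusted p = 2.29e-10), Itga1 by 3.26 ± 0.21 log2 (limma adjusted p = 1.32e-08) and its partner Itgb1 by 0.99 ± 0.18 log2 (limma adjusted p = 0.000567). The LD cultures of Cd44 lay within or below the range of the antisense controls, a level not shown to be above background. Itga1 and Itgb1 encode a collagen-binding integrin. The collagen receptor kinases did not pass, Ddr1 at -0.02 log2 and Ddr2 at 0.69 log2 (limma adjusted p = 0.290). With RA/Fsk over LD 0 of the 5 passed with limma, and 0 had an unadjusted p under 0.05.

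Of 23 basement membrane and fibril partners, 16 were measured, and 6 rose with FBS over LD and 0 fell, with a median of 0.58 log2. Fn1, the fibronectin gene, rose by 5.84 ± 0.29 log2 (limma adjusted p = 4.9e-10), from 30.1 to 45.4 in LD to 1929 to 3413 in FBS. Also among them were Bgn, a small proteoglycan that binds fibrils (2.51 ± 0.27 log2, limma adjusted p = 2.95e-06), and the laminin chains Lamc1 (1.51 ± 0.18 log2, limma adjusted p = 7.27e-06) and Lama5 (2.60 ± 0.35 log2, limma adjusted p = 2.35e-05). Lama5 lay below the antisense controls in LD, so its size is set against a level not shown to be above background. Dcn, a proteoglycan of type I fibrils, did not pass (0.14 log2, limma adjusted p = 0.824), and neither did Lum (0.49 log2, limma adjusted p = 0.362). Dcn and Lum both lay below the antisense controls in LD and FBS. With RA/Fsk over LD, 1 of the 16 fell, Agrn, a basement membrane proteoglycan, by 1.48 log2 (limma adjusted p = 7.03e-05).

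Of 20 genes for collagen breakdown and its inhibition, 19 were measured, and 7 rose and 2 fell with FBS over LD. With RA/Fsk over LD 6 rose and 0 fell. Plat, tissue plasminogen activator, rose by 4.07 ± 0.24 log2 with FBS (limma adjusted p = 3.67e-09) and by 3.02 ± 0.24 log2 with RA/Fsk (limma adjusted p = 5.74e-07). Its LD cultures lay within or below the range of the antisense controls, a level not shown to be above background. The inhibitor Timp2 rose by 1.99 ± 0.15 log2 with FBS (limma adjusted p = 6.47e-08) and by 0.75 ± 0.15 log2 with RA/Fsk (limma adjusted p = 0.00441). Timp1 rose by 1.10 ± 0.11 log2 with FBS (limma adjusted p = 1.24e-06) and by 0.62 ± 0.11 log2 with RA/Fsk (limma adjusted p = 0.00157). Ctsl, a lysosomal protease, rose by 2.21 ± 0.18 log2 with FBS (limma adjusted p = 1.53e-07) and by 1.21 ± 0.18 log2 with RA/Fsk (limma adjusted p = 0.0004). Mmp11, a matrix metalloproteinase, rose by 1.92 ± 0.36 log2 with RA/Fsk (limma adjusted p = 0.00313) and by 1.55 ± 0.36 log2 with FBS (limma adjusted p = 0.00403). Both comparisons use the same LD cultures. With the culture number as a block in the RA/Fsk and LD cultures alone, 5 of the 19 rose, and Timp2 no longer passed (limma adjusted p = 0.0605).

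Of 21 genes for TGF-beta signals and other regulators of collagen genes, 18 were measured, and 8 rose and 1 fell with FBS over LD. Ccn1, a secreted matrix protein, rose by 4.07 ± 0.28 log2 (limma adjusted p = 2.19e-08), Tgfb1 by 2.45 ± 0.28 log2 (limma adjusted p = 4.46e-06) and Cebpb by 2.56 ± 0.48 log2 (limma adjusted p = 0.000618). In LD Tgfb1 lay below the antisense controls and Ccn1 within or below their range. The sizes for Tgfb1 and Ccn1 are thus set against levels not shown to be above background. Nfyb, a subunit of the factor that binds CCAAT, fell by 1.22 log2 (limma adjusted p = 5.86e-05). With the GAPDH ratio as a covariate 5 of the 18 rose. With RA/Fsk over LD, Fos rose and Nfyb and Ets1 fell, Ets1 no longer with that block (limma adjusted p = 0.0714), and Tgfb1 did not pass (0.17 log2, limma adjusted p = 0.810). Between HD and LD, with the brightest probe set standing for each gene, 0 genes of these 6 lists passed with limma, and 0 to 6 per list had an unadjusted p under 0.05.

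**Figure D5:**
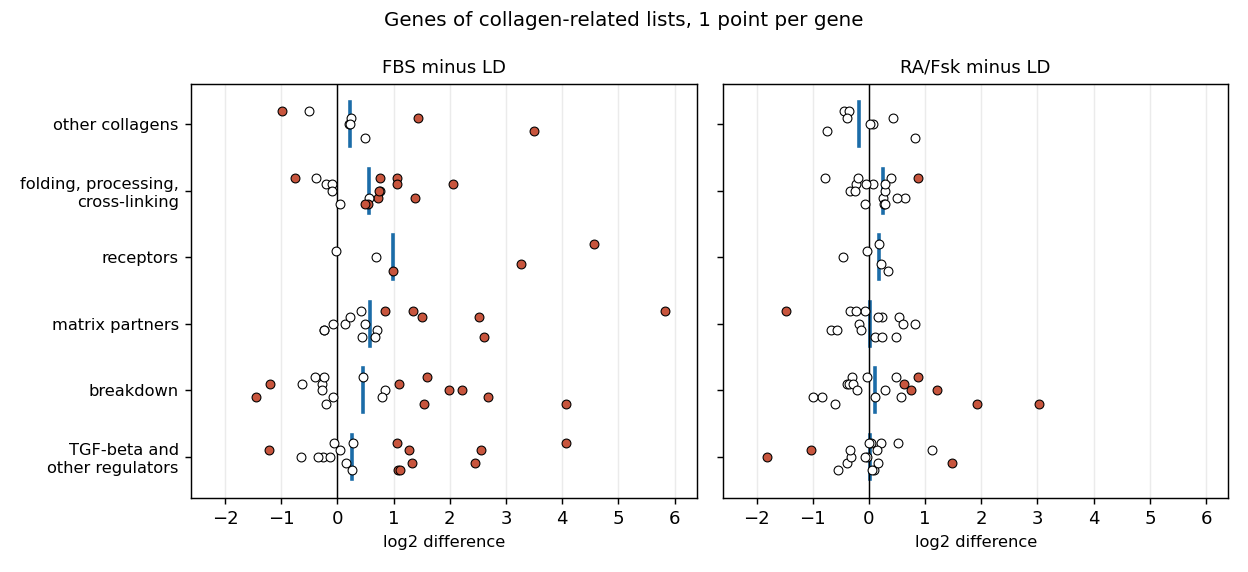
Log2 difference of each gene of the 6 related lists for the comparisons with LD, with 1 point per gene, filled where it passed, and a blue bar at the list's median. For FBS minus LD the medians run from 0.22 for the other collagens to 0.99 for the receptors, and for RA/Fsk minus LD from -0.17 to 0.25.

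Markers of other cell types were read beside these results, and their part in the results was not tested. Over all probe sets 13.2% rose and 12.3% fell with FBS over LD, and 4.71% rose and 3.54% fell with RA/Fsk over LD. These shares are again not matched to the lists for brightness. Of 13 fibroblast and meningeal markers 10 were measured, and their summed intensity ran from 983.2 to 1296 in LD, from 4395 to 5945 in FBS and from 875.4 to 1348 in RA/Fsk. In that list 2 rose with FBS over LD, Igfbp2 and S100a4, and 2 fell, Pdgfra and Thy1. The fibroblast proteoglycans Dcn and Lum did not pass, but both lay below the antisense controls in LD and FBS. The 7 measured of 8 smooth muscle and pericyte markers summed to between 247.4 and 297.7 in LD, 1191 and 2752 in FBS and 477.6 and 573.2 in RA/Fsk, and Myl9 and Tagln rose with FBS while Acta2 did not pass (0.40 log2, limma adjusted p = 0.189). The 6 measured of 10 endothelial markers summed to between 146.3 and 272.7 in every culture and the 8 measured of 9 microglial markers to between 189.1 and 384.2, and 0 of either list passed with FBS or RA/Fsk over LD by limma. In these comparisons 1 marker had an unadjusted p under 0.05, a microglial one with RA/Fsk. Of 7 Schwann and neural crest markers 6 were measured, and 1 fell with FBS and 1 rose with RA/Fsk. No marker stood at 0 in any group, which does not show that a marker was above background. In each group 5 of the 6 endothelial markers and 5 or 6 of the 8 microglial markers had means below the median of all values.

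The labelled cell types were checked in the same way. Of 9 astrocyte markers 8 were measured, with sums from 2030 to 2624 in LD, from 5999 to 8017 in FBS and from 8005 to 9357 in RA/Fsk, and 4 rose with FBS and 3 with RA/Fsk. Of 11 neuron markers 8 were measured, and with RA/Fsk over LD 0 rose and 1 fell, Gap43, so no measured neuron marker rose in the cultures labelled as neurons. With FBS over LD 1 of these 8 rose, Nefm, a neurofilament chain, by 2.26 ± 0.58 log2 (limma adjusted p = 0.00765), from LD cultures below the antisense controls. Of 9 neural progenitor markers 7 were measured, with sums from 5796 to 8215 in LD, from 6693 to 7200 in FBS and from 4687 to 7012 in RA/Fsk. With FBS over LD 5 of the 7 fell, Fabp7 by 1.79, Ptprz1 by 1.70, Hes5 by 1.21, Sox11 by 1.19 and Notch1 by 0.51 log2, and with RA/Fsk 1 fell, Sox11. Gfap, Tubb3 and Sox2 were not matched to a probe set and were not analysed here. Col5a1 was high in both treated groups and Col12a1 in FBS alone. The astrocyte sums were higher than in LD in both treated groups, and also in HD, at 3815 to 5008. The largest value was in RA/Fsk, where Aldoc alone had a mean of 4347, against 1273 in LD. In each group 4 of the 8 measured astrocyte markers had means below the median of all values. The smooth muscle and pericyte sums were higher in both treated groups than in LD, with the larger values in FBS. With RA/Fsk over LD 1 of these 7 markers rose and 6 did not pass. The marker that rose was Myl9, with a mean of 49.2 in LD and 306.2 in RA/Fsk. The fibroblast and meningeal sums were high in FBS alone, where most of the sum came from Igfbp2 (mean 3373) and S100a4 (mean 1229). Pdgfra of the same list had a mean of 766.8 in LD and 130.6 in FBS. Igfbp2 was also the gene closest to Col12a1 in pattern. Whether the collagens go with any of these cell types was not tested.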

How the data were processed

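Rat progenitor cultures and their treated derivatives were measured on 20 arrays. The deposited values are linear intensities per probe set and array, and their trimmed means of 200.3 to 200.5 show that the arrays share a common level. How the authors corrected background, summarised probes, scaled arrays and called detection is not given in the sources used here. The 59 controls on each array were not tested, and 6 zeros were kept. Of the 8740 probe sets tested, 7006 carried 1 symbol in the platform annotation, 308 several, and 1426 were not listed there and are unnamed here. Of the 7006, 6985 had an entry in RefSeq's GRCr8 gene table, which changed 0 symbols. The pseudocount of 4.99 added before taking log2 is 10% of the median positive value, and arrays of a culture were averaged.

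One limma fit (limma 3.58.1, R 4.3.3, eBayes with trend) of the 4 groups gave 6 comparisons, with a residual df of 10 and a prior df of 6.13. The fit was tested on simulated data. Members and lists were chosen with earlier results of these data known. Every member probe set is described. A gene of a related list stands for its brightest probe set, and at most 4 that passed with the smallest adjusted p are named per list and comparison, besides genes named as not passing. Mmp11 with FBS and Timp2 with RA/Fsk are given in addition, since both were named for the other treatment. Igfbp2, S100a4, Pdgfra, Thy1, Myl9, Tagln, Acta2, Gap43, Nefm, Fabp7, Ptprz1, Hes5, Sox11 and Notch1 were named from the marker lists after their values were seen. Aldoc was named in the same way. Other settings tried were pseudocounts of 1 and 32, quantile and median scaling, a filter on dim probe sets, arrays as samples, no trend, fewer groups, the culture number as a block, the GAPDH ratio as a covariate and each culture left out, 24 in all, and 3 more were chosen after seeing the data.

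Culture numbers recur in several groups. Deviations from the group means of RA/Fsk and LD cultures of the same number correlated at 0.327, 0.157 and 0.108, each over 0.1, so these numbers were taken to pair the samples. The pairing comes from the numbers in the array titles. The number of arrays limits the precision.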

Additional observations from a re-analysis of the deposited data

Results flagged for a closer look

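For each of the 10 member probe sets, the 4 FBS and the 4 RA/Fsk cultures were examined for a value far from the others, 20 group tests in all, of which chance flags about 1 in 20. In 2 of them the gap to the nearest culture was larger than 0.829 of the group's whole range. Col1a1 set 2 stood at 83.8 in RA/Fsk culture 1, above the other RA/Fsk cultures, which reached at most 53.8, with a gap of 0.861 of the range. Col1a1 set 3 stood at 34.7 in FBS culture 2, below the other FBS cultures at 50.3 to 53.8, with a gap of 0.844 of the range. That flag lies close to the limit and does not hold on the linear intensities. Neither probe set passed in a comparison between groups.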

How the results depend on the processing

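Over the alternatives for single member probe sets, 1515 differences kept their side of the threshold, 3 gained a call and 16 lost one, and 0 differences with a call changed direction. For HD minus LD the count of member probe sets that passed was 0, and it became 1 when every array counted as a sample. For RA/Fsk minus LD the count of 2 became 1 with a pseudocount of 1, without an intensity trend, with only the groups compared in the fit, and when the dimmer 50% of probe sets were dropped, which leaves 4 of the 10, Col5a2 not among them. It also became 1 with FBS culture 3 from array 3r alone or without that array, and with the culture number as a replicate block in the RA/Fsk and LD cultures alone, where Col5a1 differed by 1.10 log2 (limma adjusted p = 0.0452). With the replicate block over all 14 cultures Col5a1 differed by 1.24 log2 (limma adjusted p = 0.00364) and Col5a2 by -1.16 log2 (limma adjusted p = 0.0241), and no other call of a member was changed by the block. Leaving out 1 culture in turn gave 1 to 2. Col5a2 lost its call in this comparison in 15 of 26 alternatives, and its adjusted p ran from 0.00879 to 0.164. Over 26 alternatives for FBS minus LD, Col5a1 stayed between 2.05 and 2.76 log2 and Col12a1 between 2.57 and 3.67 log2, and both passed in all. Median centring of the arrays moved the median of all probe sets by 0.10 log2 for HD minus LD and for RA/Fsk minus FBS, and by -0.19 log2 for FBS minus HD. The cause of these changes was not tested. Dim probe sets limit what could be seen for Col1a2, Col5a2, Col1a1 set 4 and Col3a1 set 2, which lay below the array median on every array.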

Other observations

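Over the 14 cultures the levels of Col5a1 and Col12a1 correlated at 0.804, and after the mean of each group was taken away the correlation was -0.0733. The cultures share arrays and scaling, so both values are given as a description.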
